A study of Mus musculus with 4 samples.

Results

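Mouse macrophages grown from bone marrow were described from the single library of cells that had met no extracellular vesicles. It was 1 of the 4 libraries of the series. The library gave read counts for 38087 annotated genes, and all of them were taken as members, because the rule for inclusion was the library itself and used no measured value. The cells came from C57BL/6 mice aged 6 to 8 weeks and were labelled WT. Marrow cells were cultured over 5 to 7 days, with L929-conditioned medium at 30% as the source of macrophage colony-stimulating factor. The other 3 libraries were from macrophages given vesicles of the human lung epithelial line Beas2B, over 16 h, and were not compared here. Those vesicles had been loaded with a mimic of miR-93 or of miR-17, or with scrambled RNA. RNA of 4 biological replicates was pooled into this library. No spread between cultures can be read from it, so no test was made, and every interval below is a 95% exact interval that covers counting error only. PCR duplicates are not independent molecules, and they add an error that these intervals do not hold.

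Macrophages are phagocytes that engulf microbes, dying cells and debris, digest them in lysosomes, recycle the iron and lipid they take up, and report on what they find with cytokines and chemokines. Colony-stimulating factor 1 keeps them alive through its receptor Csf1r, and the transcription factor PU.1, product of Spi1, switches on most of their identity genes. Unstimulated cells carry the receptors for danger signals but make few of the products that those signals release. Whether that division of labour could be seen in absolute levels is the question addressed here. The label WT names no stimulus, and whether the cells of this library were at rest was not tested.

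Reads summed over genes numbered 19705482. A read that lies in overlapping genes can score for each of them, so this sum can exceed the number of reads. Shares of all reads below are shares of this sum. Levels within a gene are given as reads, or as RPM, the reads per 1000000 reads in genes, where 1 RPM was 19.7 reads. Ranks by reads or RPM describe the share of the library that a gene takes, and levels per length are given as RPM per kilobase of exon (RPKM). For a gene with 0 reads the limit given is 3 reads, or 0.152 RPM, which is a one-sided limit. Of 22571 protein-coding genes, 12536 reached 1 RPM (55.5%), 4312 had 0 reads (19.1%) and 5723 were between these bounds. The median protein-coding gene was at 0.723 RPKM, and the median of those at 1 RPM or more was at 5.01 RPKM. These values are the yardstick for each gene group below. Reads were counted over whole gene spans, so an intronic or overlapping read also scores. For 1565 of the 12536 genes (12.5%) a shorter overlapping gene had at least 50% as many reads as the gene itself, the reads sat on few bases, or the deposited span was much longer than the annotated gene, and such genes are termed uncertain below.

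All 5 macrophage markers were among the 200 protein-coding genes with the most reads. Lyz2, which encodes the secreted antibacterial lysozyme M of myeloid cells (chromosome 10, 117277334 to 117282274, mm10), was the most abundant gene of the library with 485955 reads, an interval of 484590 to 487323 reads and a level of 18739 RPKM. It held 2.47% of all reads. Adgre1, which encodes the F4/80 surface antigen (chromosome 17), had 56231 reads and 881 RPKM. Cd68, a lysosomal glycoprotein of phagocytes (chromosome 11), had 20084 reads and 811 RPKM. Csf1r, the growth factor receptor that the culture medium engages (chromosome 18), had 25859 reads and 227 RPKM. Spi1 (chromosome 2) was the lowest of the markers with 9987 reads and 188 RPKM, and ranked 195 by RPM among protein-coding genes. The counting intervals of neighbouring markers did not overlap in reads. Lyz1, the near-identical intestinal lysozyme next to Lyz2, was listed at 837 RPKM, and reads of this pair cannot be told apart with certainty.

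**Figure D1:**
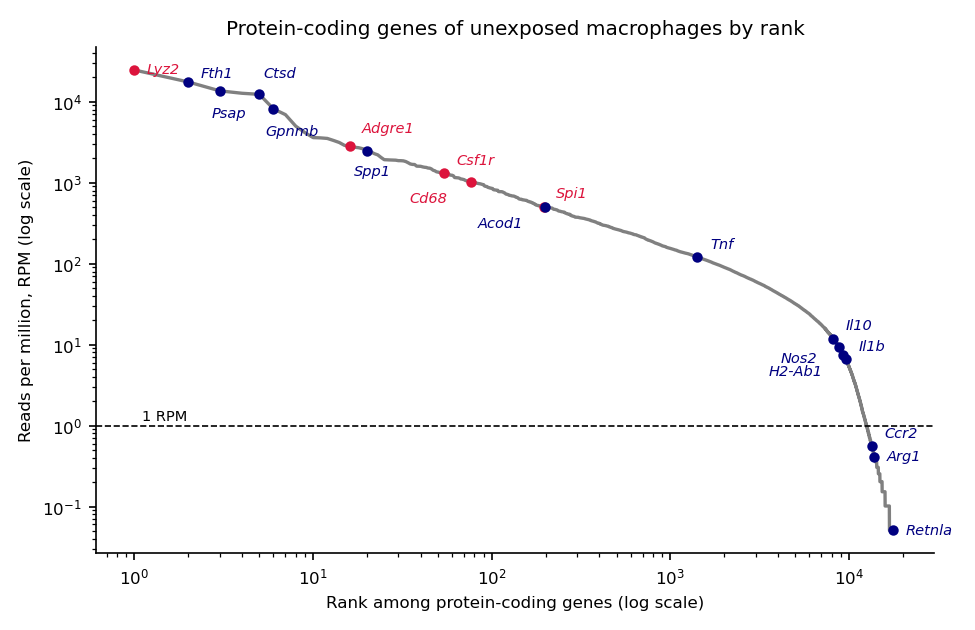
RPM of each protein-coding gene with at least 1 read (y axis, log scale) against its rank (x axis, log scale) in the 1 unexposed library; red points are the 5 macrophage markers, blue points other named genes, and the dashed line marks 1 RPM. Lyz2 leads at 24661 RPM, Spi1 and Acod1 share almost the same point at 507 and 505 RPM, and Arg1 and Ccr2 fall below 1 RPM.

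RNA was spread unevenly over genes. The 10 genes with the most reads held 11.7% of all reads, the top 100 held 26.6%, and 681 genes held 50%. Ftl1 and the gene model Gm22133 that lies inside it, at ranks 8 and 9, both count among those 10. Above 1000 RPM there were 81 protein-coding genes with 22.7% of all reads, and the 1697 genes between 100 and 1000 RPM held 38.4%. After Lyz2, the leading genes were those of iron storage and of lysosomal digestion. Fth1, the heavy chain of ferritin, had 346127 reads, and Psap, the precursor of the saposins that help break down sphingolipids, had 268748. Ctsb and Ctsd, lysosomal cathepsin proteases, had 250853 and 243224 reads. Next came Gpnmb, a transmembrane glycoprotein of lysosome-rich cells, with 160905 reads, and Ftl1, the ferritin light chain, with 136603. Among the 20 protein-coding genes with the most reads were also Tmsb4x, which binds actin monomers, Actb and Vim of the cytoskeleton, Lgals3, the secreted galectin 3, H2-D1 of MHC class I, Prdx1, a peroxide-reducing enzyme, and Spp1, the secreted protein osteopontin. Slc13a3, a sodium-dependent dicarboxylate transporter, ranked 13 by this measure with 65559 reads, spread over 6025 covered bases beside an exonic length of 5215.

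Per kilobase of exon Lyz2 stayed first, but the order of other leaders changed. Among protein-coding genes, Ctsd moved from rank 5 to 2, Ctsb from 4 to 8, Gpnmb from 6 to 19 and Vim from 19 to 55. Lyz2 was followed by Ctsd at 5250, Ftl1 at 5173, Fth1 at 5063 and Psap at 4970 RPKM, which are close to each other on this scale. Their order is not settled, since Fth1 reads were counted over a span of 2390 bases but divided by 3469 exonic bases. Per kilobase of span Fth1 stood at 7349 RPM. Tmsb4x stood at 3031, Ctsb at 2104, B2m, the light chain of MHC class I, at 1951 and Lgals3 at 1690 RPKM. Spp1 at 1506, Rplp1 of the ribosomal stalk at 1403, Actb at 1336, Ctsz at 1320 and Gpnmb at 1254 RPKM were also among the 20 highest. Others among them were gene models without an established name and Ftl1-ps1, a ferritin light chain copy.

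Most genes of the lysosomal lists, which were chosen by hand, were high. Of 43 genes for lysosomal hydrolases and cathepsins, 41 reached 1 RPM, 27 exceeded 100 RPM and none was at 0 reads. Their median level was 47.0 RPKM, against 0.723 RPKM for all protein-coding genes, and together they took 5.33% of all reads. Behind Ctsd, Psap and Ctsb came Ctsz at 1320 RPKM, the elastin-degrading Ctss at 853, the asparaginyl protease Lgmn at 576, and the hexosaminidase subunit Hexa at 358 RPKM. The lowest members were cathepsins of other cells, Ctsw of cytotoxic lymphocytes with 4 reads and Ctsg of neutrophils with 6 reads. Ctsk, the collagen-degrading cathepsin of osteoclasts, had 334 reads and 11.2 RPKM. All 27 genes for lysosomal membrane proteins and the proton pump that acidifies the organelle reached 10 RPM, with a median of 80.5 RPKM. Lamp1, the main glycoprotein of the lysosomal membrane, stood at 904 RPKM. Within this list, which was chosen by hand, the pump subunits ranged from Atp6v0d1 at 191 to Atp6v0d2, the osteoclast form, at 6.41 RPKM. The pump subunit gene Atp6v0c had 9078 reads beside 13714 at 1 pseudogene copy, so which subunit leads is not settled. Taken whole by symbol, 18 of 26 pump subunit genes and 12 of 23 cathepsin genes reached 1 RPM. Of these families, 1 pump subunit gene (3.85%) and 7 cathepsin genes (30.4%) had 0 reads, against 19.1% of all protein-coding genes. The family medians were 27.0 RPKM for pump subunits and 1.40 RPKM for cathepsins. In the deposited Gene Ontology annotation, 162 of 193 lysosome genes reached 1 RPM (83.9%), against 55.5% of all protein-coding genes.

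Many promoters of lysosomal genes hold the E-box CACGTG, the core of the element bound by the related factors Tfe3, Tfeb, Mitf and Tfec. Of these, Tfe3 was highest at 18.8 RPKM, followed by Mitf at 8.98, and Tfeb and Tfec were close to each other at 3.61 and 3.58 RPKM. The promoters of Lamp1 and Ctsd are printed to show this element in front of a leading membrane gene and a leading protease gene. Each line gives the 120 bases before the RefSeq transcription start in GRCm38.p6, 5′ to 3′ on the strand of the gene, with CACGTG in capitals: Lamp1 lies at chr8:13159041-13159160 on the plus strand and Ctsd at chr7:142387828-142387947 on the minus strand.
Lamp1: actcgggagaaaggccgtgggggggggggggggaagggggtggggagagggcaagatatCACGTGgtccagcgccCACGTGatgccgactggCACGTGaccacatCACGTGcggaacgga
Ctsd: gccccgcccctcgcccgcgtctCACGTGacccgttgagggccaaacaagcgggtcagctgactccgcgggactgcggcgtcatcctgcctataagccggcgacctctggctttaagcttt
The Lamp1 window held 4 copies of the element, starting at -61, -45, -28 and -15 from the start, and the Ctsd window held 1, at -98. CACGTG reads the same on both strands and was the only motif searched. In RefSeq windows from 250 bases before to 50 bases after a start, 7.15% of all 32851 windows held it. By gene this was 8.09% of 27025 genes, beside 10 of the 34 hydrolase and cathepsin genes with a window (29.4%) and 6 of the 21 membrane and pump genes with one (28.6%). A match describes the letters of a promoter and not binding in these cells.

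Iron and redox genes formed the next large block. Of 22 iron-handling genes 18 reached 10 RPM, and the list took 2.89% of all reads, most of it from Fth1 and Ftl1. Hmox1, the haem oxygenase that frees iron from haem, stood at 1009 RPKM, the lysosomal haem transporter Slc48a1 at 282 and the biliverdin reductase Blvrb at 147 RPKM. Slc11a1, the phagosomal metal transporter known as Nramp1, was at 132 RPKM. The iron exporter Slc40a1 was at 6.14 and the haemoglobin receptor Cd163 at 3.98 RPKM. Hamp, which encodes the iron hormone hepcidin of liver, had 0 reads. Antioxidant genes had a median of 48.3 RPKM over 26 members, led after Hmox1 by Prdx1 at 889, catalase (Cat) at 418, the glutathione peroxidase Gpx1 at 255 and the sulfiredoxin Srxn1 at 162 RPKM. The intestinal peroxidase Gpx2 had 0 reads. The phagocyte NADPH oxidase, which makes superoxide in the phagosome, was high in several subunits: Cyba stood at 334, Rac2 at 308, Cybb at 167, Ncf4 at 113 and Ncf1 at 98.7 RPKM. Its relatives of other tissues were low, with Nox3 at 8, Duox1 at 2 and Duox2 at 1 reads.

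Cytoskeletal and metabolic genes were high as well. The 33 actin cytoskeleton genes had a median of 123 RPKM, and below Tmsb4x and Actb the intermediate filament gene Vim stood at 554, the actin Actg1 at 414, the actin-capping Capg at 399, cofilin (Cfl1) at 376, profilin (Pfn1) at 301 and the leukocyte bundler Lcp1 at 168 RPKM. Actg1 had 21688 reads beside 37541 at 2 pseudogene copies, and Cfl1 had 21096 beside 11529 at 1, so their places in this order are not settled. The muscle actins Acta1 and Actc1 had 48 and 5 reads. In lipid handling, the scavenger and fatty acid receptor Cd36 was at 432, the lipoprotein Apoe at 471, the lipid droplet coat Plin2 at 291 and the lysosomal lipase Lipa at 192 RPKM. The cholesterol exporters Abca1 and Abcg1 were at 41.7 and 40.1 RPKM, and Plin1, the droplet coat of fat cells, had 1 read. By reads placed at the genes themselves, glycolytic genes were led by Aldoa at 521 and Pkm at 365 RPKM. Gapdh had 3226 reads beside 46426 at 17 pseudogene copies, so which glycolytic gene leads is not settled. Genes of DNA replication and division were present, with 37 of 37 members at 1 RPM or more and a median of 9.61 RPKM. The replication clamp Pcna was at 72.9, the topoisomerase Top2a at 12.1 and the proliferation antigen Mki67 at 11.1 RPKM, beside the cell cycle inhibitor Cdkn1a at 115 RPKM.

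**Figure D2:**
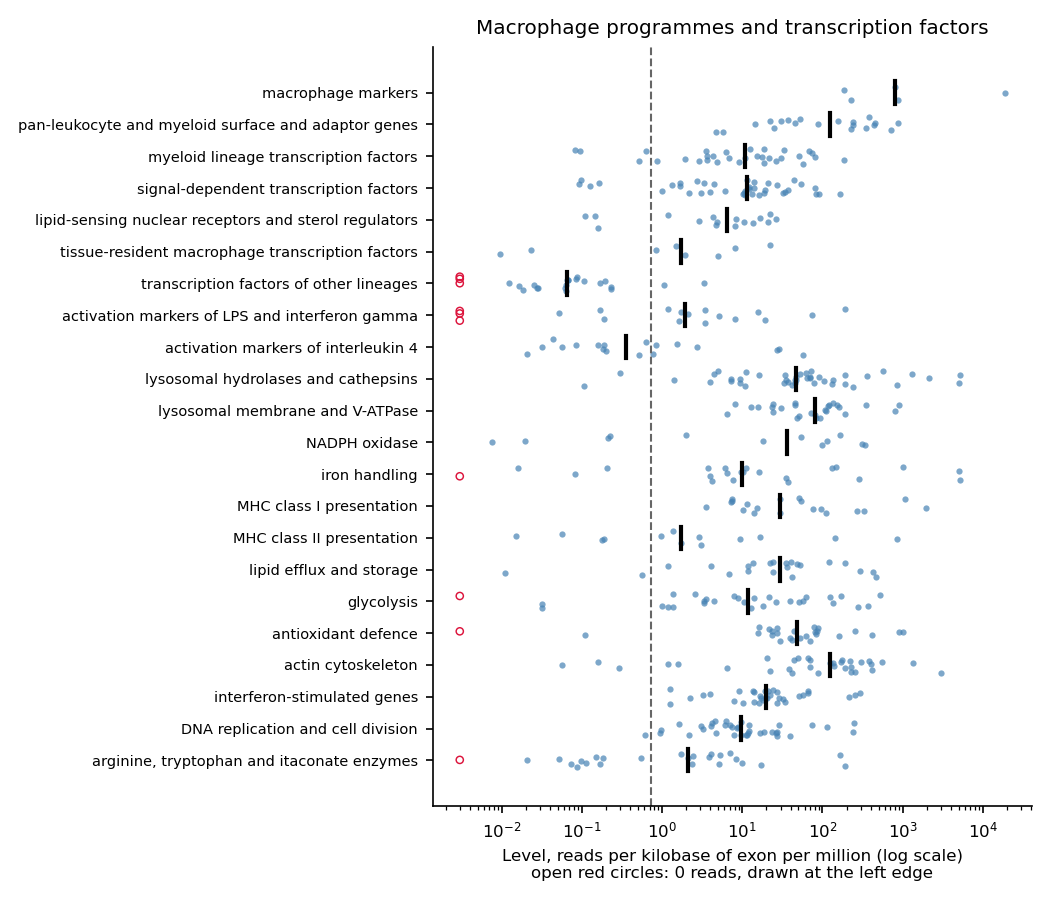
Level of each member gene in RPKM (x axis, log scale) for lists of macrophage markers, transcription factors and programmes (rows); points are genes, black bars list medians, open red circles genes with 0 reads, and the dashed line the median of all protein-coding genes. The lysosomal lists sit at medians of 47.0 and 80.5, whereas interleukin 4 markers (0.353) and factors of other lineages (0.0650) lie left of the line.

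Antigen presentation was lopsided. All 19 genes of the MHC class I list reached 10 RPM and 8 reached 100 RPM, with a list median of 29.4 RPKM. B2m stood at 1951, H2-D1 at 1064, H2-K1 at 328 and the loading chaperone Calr at 267 RPKM. Class I heavy chain genes are close copies of each other, so single values are less certain than the group. The class II genes that display peptides to helper T cells were lower on the same scale, with 10 of 13 list members at 1 RPM or more and a list median of 1.70 RPKM, and with H2-Ab1 at 2.92, H2-Eb1 at 1.70 and H2-Aa at 1.38 RPKM. Ciita, the factor that switches class II genes on, had 35 reads. Cd74, the class II invariant chain, was at 16.7 RPKM, and within the list only Ctss and the lysosomal reductase Ifi30 (142 RPKM) exceeded 100 RPM. B2m overlaps Patl2, which was listed with a similar 33580 reads.

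Of 18 markers of LPS and interferon gamma, 13 reached 1 RPM and 3 were at 0 reads. Acod1, which makes itaconate from a citrate cycle intermediate and is strongly induced by LPS, had 9954 reads (interval 9759 to 10152) and 193 RPKM. Tnf was at 73.8 and the costimulatory ligand Cd80 at 18.9 RPKM. The nitric oxide synthase Nos2 had 185 reads and 2.13 RPKM, and Il1b had 130 reads and 3.46 RPKM. Il6, Cxcl9 and Cxcl11 had 0 reads. The list of 18 interleukin 4 markers had 3 members above 10 RPM, namely the mannose receptor Mrc1 at 57.4, the transglutaminase Tgm2 at 28.4 and the receptor subunit Il4ra at 27.3 RPKM. Its most specific products were scarce, with 8 reads for Arg1, 6 for Chil3 and 1 for Retnla. All 33 interferon-stimulated genes reached 1 RPM, from the tetherin gene Bst2 at 289 and Ifitm3 at 251 RPKM to Ifitm1 at 1.25, although their inducer Ifnb1 had 2 reads.

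In the deposited annotation 425 of 834 genes of sequence-specific transcription factor activity reached 1 RPM (51.0%), 149 had 0 reads, and the median was 0.235 RPKM. Spi1 was the highest of them that was not uncertain. Atf3, a stress-induced bZIP repressor, followed at 165, its relative Atf4 stood at 90.2, and Nfe2l2, which drives Hmox1 and other antioxidant genes, at 84.0 RPKM. Among myeloid lineage factors, Klf6 was at 79.5, Cebpb at 73.3, Irf5, linked to inflammatory macrophages, at 67.5, Maf at 30.1 and Irf8 at 26.1 RPKM. The list held 31 such factors, and 29 reached 1 RPM. Gfi1 of granulocytes, with 6 reads, and Irf4 of dendritic cells and B cells, with 8, were below that level. Of 39 signal-dependent factors 35 reached 1 RPM, with Stat6, which carries the interleukin 4 signal, at 54.5, Junb at 44.7 and the NF-kB subunit Rela at 32.2 RPKM. Immediate early genes were split: Egr3, Nr4a2, Nr4a3 and Fosb had 10 to 14 reads each, whereas Junb, at 44.7 RPKM, is also of that class. The 7 STAT genes and the 5 C/EBP genes matched by symbol all reached 1 RPM.

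Factors that mark macrophages of particular tissues gave a split result. The liver X receptor Nr1h3 was at 21.9, Pparg of alveolar macrophages at 8.16 and Spic of splenic red pulp macrophages at 4.97 RPKM. Gata6 of peritoneal macrophages had 3 reads and Sall1 of microglia had 1. Of 24 factors of other lineages 4 reached 1 RPM, the highest being Foxp3 with 303 reads, which is uncertain. Sox2, Myod1 and Pou5f1 had 0 reads.

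Sirpa, which receives the CD47 signal that spares healthy cells, stood at 450 RPKM, and the signalling adaptors Tyrobp and Fcer1g at 865 and 723 RPKM. The scavenger receptors included Marco at 326, the large endocytic receptor Lrp1 at 105 and the lipid sensor Trem2 at 85.7 RPKM. The efferocytosis receptor Mertk was at 25.6 and Timd4, a marker of long-lived resident macrophages, at 2.06 RPKM, and Lyve1 had 1 read. The integrin chains Itgb2 and Itgam, which form complement receptor 3, were at 376 and 242 RPKM. Itgax, the dendritic cell chain CD11c, had 196 reads and 2.07 RPKM. The activating IgG receptors Fcgr3, Fcgr4 and Fcgr1 were at 203, 114 and 63.0 RPKM, and the inhibitory Fcgr2b at 12.5. The IgE receptor chain Fcer1a had 0 reads. Among C-type lectins, Clec4d and Clec4a1 were at 320 and 302 RPKM, whereas Cd209a, the mouse homologue of DC-SIGN, had 1 read.

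Microbial sensing was broad. Of 18 Toll-like receptors and partner proteins 16 reached 1 RPM, with a median of 18.8 RPKM. The LPS co-receptor Cd14 stood at 217, the trafficking chaperone Unc93b1 at 178 and the receptor-like Cd180 at 104 RPKM. Tlr13, which senses bacterial ribosomal RNA, was the highest receptor of the family at 71.5 RPKM, above Tlr2, for bacterial lipoproteins, at 58.7 and Tlr7, for single-stranded RNA, at 32.9. Tlr4, the LPS receptor, was at 15.1 and Tlr3, for double-stranded RNA, at 1.71 RPKM. Tlr5, the flagellin receptor, had 23 reads (interval 15 to 35), and Tlr11 and Tlr12 had 0. All 20 cytosolic sensor and inflammasome genes reached 1 RPM, with the protease Casp1 at 67.9, its substrate Gsdmd at 26.8 and the sensor Nlrp3 at 19.6 RPKM. The unprocessed cytokine Il1b, on which that machinery acts, was at 3.46 RPKM.

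Among 27 receptors for chemokines and other attractants, 15 reached 1 RPM. C3ar1, the receptor for complement fragment C3a, was at 199, the formyl peptide receptor Fpr1 at 129 and C5ar1 at 59.1 RPKM. The monocyte receptor Ccr2 had 11 reads (interval 5 to 20), Ccr7, which guides cells to lymph nodes, had 7, the neutrophil receptor Cxcr2 had 1 and Ccr8 had 0. Cxcr4 was at 14.1 RPKM. Cx3cr1 was listed at 19.9 RPKM but is uncertain, since a shorter gene overlaps it. Of 35 cytokine receptor genes 27 reached 1 RPM, led by the tumour necrosis factor receptors Tnfrsf1b at 239 and Tnfrsf1a at 69.3 RPKM and the interleukin 10 receptor chain Il10rb at 59.7. The interleukin 33 and 18 receptors Il1rl1 and Il18r1 had 10 and 3 reads. Among growth factor receptors of blood cells, Csf1r exceeded Csf2ra at 42.1 and Csf2rb at 25.3 RPKM, whereas Kit and Flt3 of progenitors had 32 and 4 reads.

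**Figure D3:**
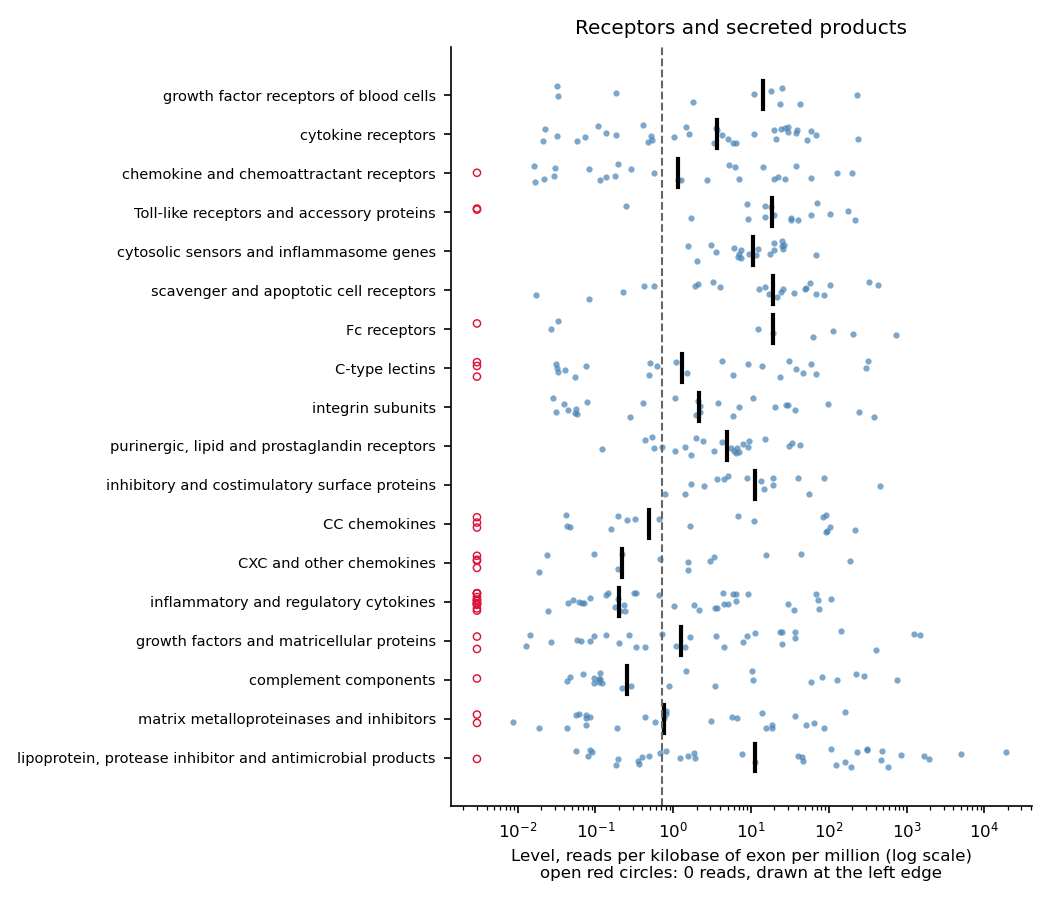
Level of each member gene in RPKM (x axis, log scale) for lists of receptors and of secreted products (rows), with points for genes, black bars for medians, open red circles for 0 reads and a dashed line for the median of all protein-coding genes. Receptor lists have medians of 1.16 to 19.4 and lie right of the line, and the chemokine, cytokine and complement lists have medians of 0.202 to 0.484, left of it. The other secreted lists lie right of it, with medians of 0.766 for matrix metalloproteinases, 1.26 for growth factors and 11.4 for lipoprotein and antimicrobial products.

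Lists of secreted products differed in level. Of 37 lipoprotein, protease inhibitor and antimicrobial products 25 reached 1 RPM and 17 reached 100 RPM, with a median of 11.4 RPKM and 5.16% of all reads, Lyz2 among them. Of 32 growth factors and matrix proteins 23 reached 1 RPM, with a median of 1.26 RPKM. The matricellular protein Spp1 at 1506 RPKM, the growth factor progranulin (Grn) at 404 and the phosphatidylserine bridge Gas6 at 143 RPKM were high in the latter list, in which Areg and Ereg had 0 reads. Complement was split between the C1q chains, which tag dying cells, with C1qb at 757, C1qc at 226 and C1qa at 129 RPKM, properdin (Cfp) at 281 and C3 at 82.8, and the terminal and lectin components, of which C6, C7, C8a and C9 had 5 to 11 reads and Mbl2 had 0. Other abundant products were galectin 1 (Lgals1) at 580, cystatin C (Cst3) at 483 and the acute phase protein Saa3 at 311 RPKM. Among matrix proteases the sheddase Adam8 was at 161 and the elastase Mmp12 at 64.5 RPKM, and Mmp7 and Mmp17 had 0 reads. In the deposited annotation 281 of 807 extracellular genes (34.8%) and 49 of 170 cytokine genes (28.8%) reached 1 RPM, against 55.5% of all protein-coding genes.

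Of 20 CC chemokines 10 reached 1 RPM, 6 of them at 10 RPM or more. Ccl3 had 3255 reads (interval 3144 to 3369) and 216 RPKM. Ccl9 was at 103, Ccl4 at 94.2, Ccl2 at 93.1, Ccl6 at 91.2 and Ccl7 at 85.0 RPKM, a group of near-equal levels. Ccl17, Ccl22 and Ccl24, typical of interleukin 4, had 2, 2 and 4 reads, and Ccl19, Ccl20 and Ccl21a had 0. Of the other chemokines, Pf4 was at 186 and the membrane-bound Cxcl16 at 43.7 RPKM, and the neutrophil attractant Cxcl2 followed at 15.4. Cxcl9, Cxcl11, Cxcl13 and Cxcl17 had 0 reads.

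Of 48 cytokine genes 20 reached 1 RPM and 13 had 0 reads. The levels were led by Ebi3, a subunit of interleukins 27 and 35, at 107 RPKM, with 2437 reads. Tnf had 2383 reads (interval 2288 to 2481). Tgfb1 at 71.9, Mif at 67.8 and the interleukin 1 receptor antagonist Il1rn at 35.5 RPKM came next, and Il10 had 234 reads and 9.06 RPKM. Mif had 996 reads beside 1502 at 1 pseudogene copy, so its place in this order is not settled. The agonists Il1b and Il1a, which compete with Il1rn for the receptor, were at 3.46 and 2.16 RPKM. The partners of Ebi3 were low, with Il12a at 8 reads and Il27 at 74, the latter uncertain. Il23a, Ifng, Csf2, Il3, Il5, Il17a, Il22 and the 2 interferon alpha genes listed had 0 reads, which allows up to 0.152 RPM for each.

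**Figure D4:**
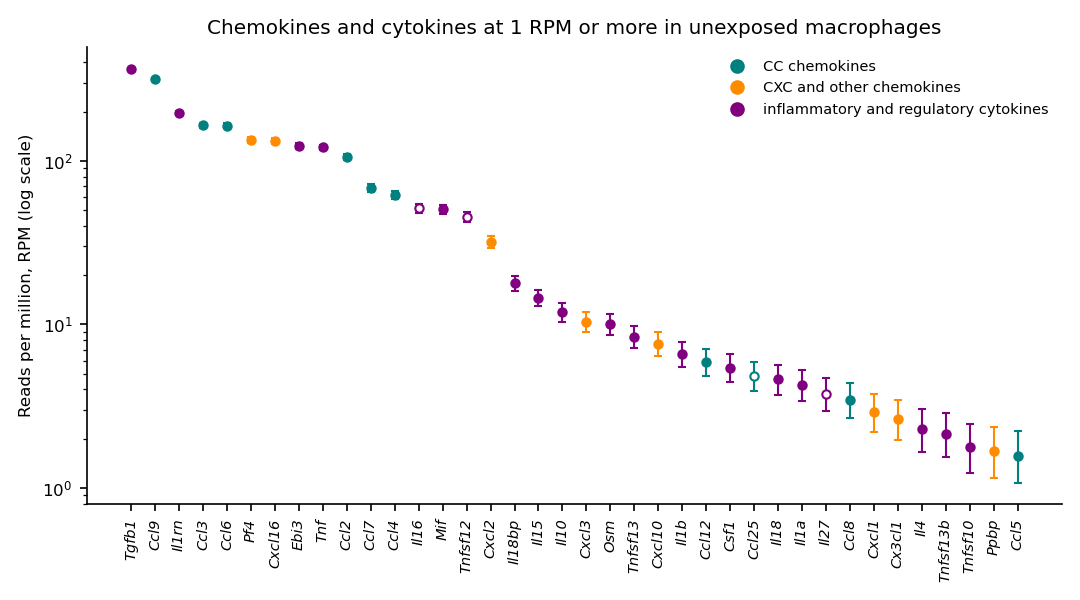
RPM (y axis, log scale) of the 38 chemokine and cytokine genes at 1 RPM or more (x axis, ordered by reads) in the 1 unexposed library; bars are 95% exact Poisson intervals for counting error, colours give the gene list, and open points mark the 4 uncertain genes. Tgfb1 leads at 362 RPM and Ccl5 closes the order at 1.57 RPM; RPM is not scaled by gene length, so the order differs from that in RPKM.

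Of 25 enzymes of arginine, tryptophan, itaconate and eicosanoid metabolism, 16 reached 1 RPM, with a median of 2.13 RPKM, and Acod1 was the highest at 193 RPKM. Alox5ap, which presents arachidonic acid to 5-lipoxygenase, was at 168 RPKM, and Alox5 itself at 5.31. The cyclooxygenases Ptgs1 and Ptgs2 were at 2.42 and 1.74 RPKM. Ido1 and Tdo2, which degrade tryptophan, had 6 and 4 reads, and the prostaglandin synthase Ptgds had 0.

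Families matched whole by symbol showed which parts of the genome were silent. Of 1110 olfactory receptor genes 995 had 0 reads and 1 reached 1 RPM, Olfr56, whose reads are uncertain. None of 38 taste receptors, 1 of 54 keratins (Krt80, with 29 reads) and 3 of 39 Hox genes reached 1 RPM. Of 1621 genes annotated as G protein-coupled receptors, a group that includes the olfactory ones, 67 reached 1 RPM (4.13%). At the other end, 79 of 79 mitochondrial ribosomal protein genes, 39 of 40 proteasome genes and 8 of 8 Schlafen genes reached it. Solute carriers lay between, with 222 of 370, led by Slc13a3 at 638, Slc48a1 and the taurine carrier Slc6a6 at 161 RPKM.

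Most markers of other cells of the marrow were nearly absent. None of 7 T and NK cell markers, 7 red cell markers or 3 eosinophil markers reached 1 RPM, and their summed levels were 0.609, 1.07 and 0.660 RPM. The B cell list summed to 27.3 RPM, all but a little of it from Cd79b with 503 reads. Cd79a and Ms4a1 had 11 and 3 reads. Outside the list, the immunoglobulin genes Ighm and Igkc of B cells had 469 and 70 reads, or 23.8 and 3.55 RPM. The neutrophil list summed to 28.5 RPM, carried by S100a8 with 547 reads, beside 2 reads for its partner S100a9 and 1 each for Ly6g and Elane. In the dendritic cell list Flt3 had 4 and Zbtb46 had 9 reads, and Itgae, the highest, is uncertain. Osteoclasts grow from the same precursors, and their list was split: Acp5, a lysosomal phosphatase also made by macrophages, had 1880 reads and Nfatc1 1097, whereas the fusion gene Dcstamp and the receptor Calcr had 5 reads each. The sums for 7 other lists ranged from 0.152 RPM for fat cells to 15.0 RPM for blood progenitors, the latter carried by Ly6a with 247 reads, and the part of such cells in any value above was not tested. The Y-linked genes Eif2s3y, Ddx3y, Kdm5d and Uty had 225 to 532 reads and Xist had 3.

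In 2 of the other libraries the vesicles carried a mimic of miR-17 or miR-93. The loci of both miRNAs were read in the unexposed library. Both mature sequences are printed from RefSeq (GRCm38.p6) to show their common seed, bases 2 to 8, in capitals.
mmu-miR-17-5p: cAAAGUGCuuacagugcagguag
mmu-miR-93-5p: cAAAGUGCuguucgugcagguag
They agreed at 19 of 23 positions. Mir17 lies at chr14:115043671-115043754 within the transcript Mir17hg, and Mir93 at chr5:138165523-138165610 within the replication gene Mcm7. The Mir17 hairpin had 1 read and Mir93 had 2, Mir17hg had 21 reads (interval 13 to 32, 1.07 RPM), and Mcm7 had 530. Mcm7 is uncertain by the rule above, since Cops6, which overlaps it at 1 end, had 1012 reads. All 6 hairpins of the Mir17hg cluster together had 6 reads. These counts concern fragments of long RNA over the hairpins, and mature miRNA was not measured by them. Other hairpin loci of myeloid interest were also low, with 73 reads at Mir21a, 28 at Mir223 and 0 at Mir155.

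By gene type, protein-coding genes held 88.2% of reads. All pseudogene types together held 8.17%, long intergenic RNAs 1.61%, antisense genes 0.825% and miRNA genes 0.811%. The miRNA share was not a measure of miRNA: 95.8% of it lay in hairpins that overlap another gene. Gm22133, a gene model of 109 bases annotated as miRNA inside Ftl1, had 105159 of the 159890 reads. Among long non-coding RNAs, Malat1 had 10565 reads and Neat1, the scaffold of nuclear paraspeckles, 2388, the latter on few of its bases. No gene of the mitochondrial genome was in the table.

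Reads at pseudogenes bear on the values of their parents. The processed copy Gm6977 on chromosome X had 206299 reads over 517 bases, and shared more of its 31-base words with Fth1 than with any other named protein-coding gene (21.2%). Of 256 pseudogenes with at least 1000 reads, 240 had a sequence to compare. Of these, 218 shared at least 20% of such words with a named protein-coding gene. In 110 of the 153 parent genes the copies together had more reads than the parent, and among ribosomal protein parents in 47 of 51. Gapdh had 3226 reads on 755 of 4133 exonic bases, whereas 17 of its copies had 46426. Tpt1 had 4730 reads beside 29085 at 2 copies, and Prdx1 had 53279 beside 59379. A gene enters this count only through a copy with at least 1000 reads, so the count describes that selection and not genes at large. The levels of the genes named here, and of the other parent genes, are uncertain, and whether the reads at copies came from the parent was not tested.

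**Figure D5:**
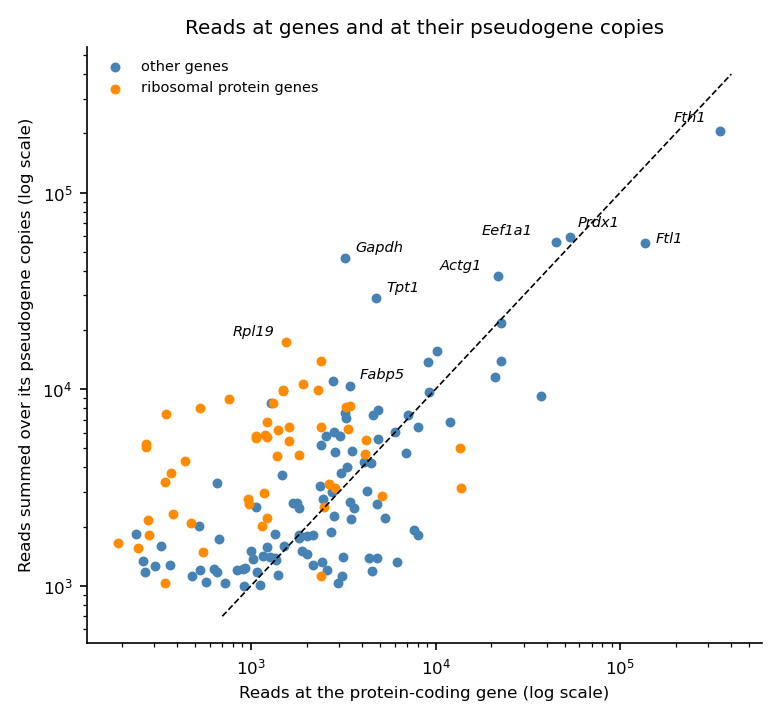
Reads summed over pseudogene copies with at least 1000 reads (y axis, log scale) against reads at the protein-coding gene that shares most 31-base words with them (x axis, log scale), for 153 genes of the 1 unexposed library; orange points are ribosomal protein genes and the dashed line marks equal counts. Points above the line, such as Gapdh at 3226 and 46426 reads, have more reads at copies than at the gene, and Fth1 and Ftl1 lie below it.

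A few further genes had reads placed unevenly or shared with other genes. Lars2, the mitochondrial leucyl-tRNA synthetase, ranked 8 among protein-coding genes with 98289 reads, but these covered 409 of 11089 exonic bases. Gm20388 had 69441 reads in a span of 4434882 bases that holds 169 other genes, whose reads sum to 68929. Cmss1 and Filip1l, on opposite strands of chromosome 16, had 36908 and 36866 reads, so reads were not divided by strand there.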

How the data were processed

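Total RNA of the pool was made into a library with an Ion Torrent whole-transcriptome kit (Ion Total RNA-Seq Kit v2 in the labels' protocols). The deposited table held counts of reads per gene as whole numbers, not normalized, and, per the file headers, the average coverage per base, a signal, and the number of bases of low coverage. The submitters' processing notes name the mm10 build and DESeq without versions; the aligner, the annotation and the handling of strand were not given in the sources used here. Deposited lengths equalled the gene span in 38087 of 38087 genes. Covered bases are the span minus the bases of low coverage.

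RPM divides counts by the 19705482 reads summed over genes, in which a read in overlapping genes can score more than once. RPKM uses the union of exons in GENCODE M21 (same build, 95.3% of genes matched by identifier), which understates genes whose annotation holds long rare exons. Intervals are exact Poisson for counts, with 3 reads as the one-sided limit for 0. With 1 library, no test or leave-one-out was possible. Genes are uncertain where a shorter overlapping gene has at least 50% as many reads (a ratio of whole counts, which does not show where the reads lie), where at least 1000 reads cover under 20% of exonic bases, or where the deposited span exceeds 1.5 times the annotated one; this was chosen after seeing the data. The 55 lists (959 genes, 1 unmatched) and 36 symbol families were chosen with earlier results of these data known, and 3 family patterns were corrected after their values were seen. Named genes were the 20 highest by RPM and by RPKM (at least 100 reads), the markers, up to 8 highest and lowest per list, and the top 3 per gene type and family. Other names, among them the miRNA loci, Malat1, the overlapping pairs and the gene copies, were chosen after their values were seen. Intervals and level classes were checked on simulated Poisson counts, which hold counting error only, so the check does not bear on other errors. Scripts ran in Python 3.11.15 with pandas 2.3.3, NumPy 2.4.6, SciPy 1.17.1 and Matplotlib 3.10.9. Some genes that the naming rule picks are not reported here.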

Additional observations from a re-analysis of the deposited data

How the results depend on the processing

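No paired analysis was possible because the unexposed group was 1 library. The alternative without mitochondrial genes was not run, since the table held none. Counting error is small at this depth, so most shares moved beyond their intervals with the setting. The protein-coding share was 89.3% without genes that overlap another and 86.8% without uncertain genes, a step added after seeing the data. The top 10 genes held 12.3% of protein-coding reads and 13.6% of reads without pseudogenes and uncertain genes, and the top 100 held 27.7% and 29.9%. Genes at 1 RPM or more numbered 12536, 6898 when only genes that overlap no other were counted, and 10971 without uncertain genes. The median rank of the 5 markers was 54 by RPM, 35 by RPKM and 253 per kilobase of span. Of the 20 genes highest by RPKM, 12 stayed among the 20 highest per kilobase of span. Of the 55 lists, 36 had a median above that of all protein-coding genes, and 34 to 39 under the other lengths. Relative to that median, 3 lists changed side per kilobase of span, 2 by the longest transcript and 2 by RPM; CC chemokines and matrix metalloproteinases changed side under 2 of these lengths each. Without overlapping genes, 15 of 55 lists had a count of members at 1 RPM that fell by more than 1.5 times.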
